A study of Mus musculus with 2 samples.

Results

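The genes described here sense bacterial products and tissue damage, relay or restrain the signal to nuclear factor κB (NF-κB), or encode acute-phase and adhesion proteins that this pathway can induce. The set holds 10 of the 37005 gene names on the array, chosen by symbol with earlier results of these data known: Tlr2, Tlr4, Cd14, Myd88, Nfkbia, Tnfaip3, Lcn2, Ptx3, Lbp and Icam1. All non-control probes carrying one of these symbols were used, which gave 15 of 56605 probes. Of the 10 genes, 6 had 1 probe, 3 had 2 probes and 1 had 3 probes, and each probe was spotted 1 time on an array.

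Gene expression was measured in the striatum of Cx30 knockout (KO) and wild-type (WT) mice after MPTP, a toxin that kills dopaminergic neurons. Cx30, encoded by Gjb6, is a gap junction protein of astrocytes. Both groups were male mice aged 8 weeks that received 4 injections of MPTP at 20 mg/kg, given 2 h apart, and RNA of the striatum was taken on day 1. The labels give the strain as C57BL/6J for WT and as Cx30-LacZ for KO, while the methods take as WT the non-mutant offspring of heterozygous parents. The KO allele was inherited and present in all cells, so an effect of astrocytes cannot be told apart from one of other cells or of development. The RNA of 2 mice was pooled for each group and hybridised to 1 single-colour array, so there is no replicate of either genotype, no spread between mice and no test. Saline-treated mice were not analysed here, and the values therefore compare the genotypes after MPTP and do not measure a response to MPTP.

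Toll-like receptors are membrane proteins that recognise microbial and damage-derived molecules, and in the brain they are known chiefly from microglia. Lipopolysaccharide is carried by the binding protein Lbp to Cd14, which passes it to Tlr4 and its partner Ly96, whereas Tlr2 recognises lipoproteins together with Tlr1 or Tlr6. Both receptors recruit the adaptor Myd88, whose kinase cascade releases NF-κB from its inhibitor. NF-κB then switches on its own restraints, such as Nfkbia and Tnfaip3, and secreted or surface proteins such as Lcn2, Ptx3 and Icam1.

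Each signal is the background-subtracted brightness of a probe in arbitrary units, printed before scaling with the error that the scanner software gives, which covers the spot and not the mice. Ratios of KO over WT were taken after each array was scaled to its 75th percentile (401.2 in WT and 381.8 in KO), which multiplies the KO signals by 1.05 relative to WT. A ratio of 0.66 or less is called lower in KO and a ratio of 1.5 or more higher in KO, which are the ratio limits of the study's methods. The methods also required a Z-score of at least 2 in size, but name no set of probes for it, so it is given separately, taken over the 1000 probes nearest in level. A probe that the software did not mark as well above background on an array has only a bound there. The lowest signals well above background were 19.8 in WT and 17.4 in KO.

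The arrays matched their labels, since Gjb6 read 1788 in WT and 111 in KO, a log2 ratio of −3.94. The striatal neuron genes had a median log2 ratio of 0.05 over 9 genes and the reference genes of 0.01 over 8 genes. Markers of cortical excitatory neurons were higher in KO: the 6 genes had a summed signal of 174.7 in WT and 1391 in KO, and 5 of them passed the limit. Of these 6 genes, 2 were well above background on both arrays and the rest in KO only, so their median log2 ratio is a bound of 2.14 with the latter genes at their limits. The measured median was 3.24, and 1.26 with normexp background correction. The part of this difference in the values below was not tested. Oligodendrocyte genes ran the other way, with 5 of 7 lower and a median of −0.73. Over all genes seen on either array, 5.63% were lower and 5.61% higher.

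The probes that decide the results are shown first, because 3 of them for one symbol gave different answers. Each line gives bases 1 to 30 of the 60-base probe, 5′ to 3′, from the array files, whose positions are on the mm9 build. The 3 probes of Tlr4 are followed by the only probes of Ptx3 and Lbp.
Tlr4, A_55_P2603039, chr4:66500344-66500403, plus strand: ccagagtttttccccaggaagtttctctgg
Tlr4, A_51_P300806, chr4:66503724-66503782, plus strand: tgtgatagggctttaaatagttgagctaat
Tlr4, A_55_P2714823, chr4:66591199-66591258, plus strand: tcttccatagtttgtgcttcatgtccctgc
Ptx3, A_51_P374726, chr3:66029245-66029304, plus strand: tgtttatcttggcaaaatactgaatacaca
Lbp, A_51_P454008, chr2:158154142-158157684, plus strand: acttccagatccgcaaggacttcttatact

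The Lbp probe spans 3543 bp of the genome although it is 60 bases long, so its sequence is split across spliced exons. The first pair of Tlr4 probes is annotated to the RefSeq transcript NM_021297 and the remaining one to the Ensembl transcript ENSMUST00000107365. That probe lies 87.4 kb beyond its nearest neighbour among the Tlr4 probes, whereas the Tlr4 gene in RefSeq (GRCm38) is 19.0 kb long. No member of the set was measured by a probe of repeated sequence, and no probe (0) was saturated. The GC content of the 15 probes ran from 35% to 55%.

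Of the 15 probes, 13 were well above background on both arrays and 14 on either, the exception being a Tlr4 probe. Among the 14 probes, 3 were lower in KO, 1 was higher and 10 lay within the limits, while of all 33910 probes seen on either array 5.36% were lower and 5.91% higher. Taking each gene at its brightest probe, Ptx3 and Lbp were lower, Cd14 was higher and 7 genes lay within the limits. Of the 22012 genes seen in the same way, 5.63% were lower and 5.61% were higher in KO. All 3 calls also met the Z-score limit, which with the ratio limits left 3.27% of all genes lower and 2.34% higher. The median log2 ratio was 0.05 over the 10 genes, 4 of them below 0 and 6 above, and 0.03 over all genes. The typical difference among the 10 genes was thus near that of all genes, and the set held a pair of genes with large differences.

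**Figure D1:**
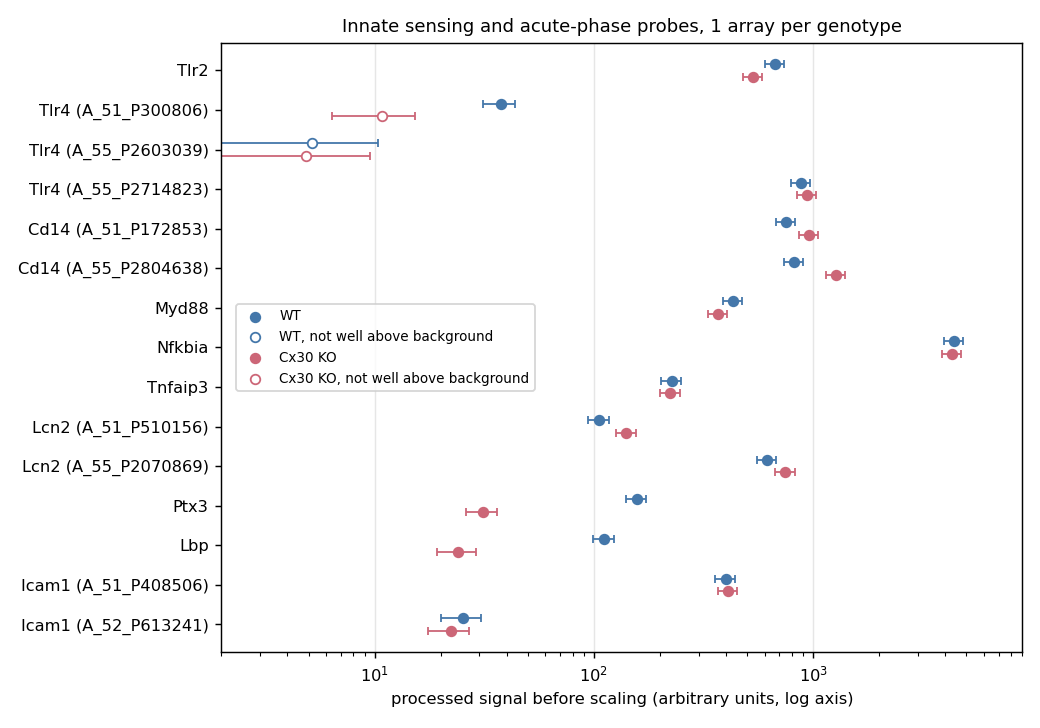
Processed signal (log axis, arbitrary units, before scaling) of each of the 15 probes on the WT and the KO array, with bars for the error of the scanner software and open points where a probe was not well above background. Bars that run below the axis are cut off at its left end. Ptx3 and Lbp sit far to the left in KO (31.2 and 24.1) of their WT values (157 and 111), and most other pairs overlap or nearly so.

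Ptx3 encodes a long pentraxin, a soluble pattern recognition protein of local inflammation and a gene counted among markers of reactive astrocytes. Its probe read 157 ± 16.3 in WT and 31.2 ± 5.13 in KO. Both values were well above background and the KO value was the lower, with error ranges that did not overlap. The log2 ratio was −2.26 ± 0.28 (software error), a level 4.79-fold lower in KO. Among the 22012 genes, 243 had a lower ratio. Background correction with normexp, which adds an offset that compresses dim signals, gave −1.17.

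Lbp encodes the lipopolysaccharide binding protein, an acute-phase protein best known from liver. It read 111 ± 12.1 in WT and 24.1 ± 4.84 in KO, again without overlap of the error ranges. The log2 ratio was −2.13 ± 0.33, or 4.38-fold lower in KO, and 262 genes had a lower ratio. With normexp the value was −0.90. Both calls rest on 1 probe with 1 spot, and the KO signals of both were close to the lowest signal well above background (17.4).

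The other acute-phase gene of the set, Lcn2, encodes lipocalin 2, an iron-siderophore binding protein and another marker of reactive astrocytes. Its brighter probe read 616 ± 61.7 in WT and 748 ± 74.9 in KO, a log2 ratio of 0.35 ± 0.20. The second probe, 778 bp away, read 105 ± 11.8 and 141 ± 14.8, a log2 ratio of 0.49 ± 0.22. Both probes read higher in KO, but neither passed the limit of 1.5, their ratios being 1.28 and 1.40. Lcn2 therefore did not share the low KO values of Ptx3 and Lbp.

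Icam1, the endothelial and leukocyte adhesion molecule that binds β2 integrins, was measured by 2 probes 836 bp apart. The brighter read 399 ± 40.1 in WT and 408 ± 41.0 in KO, a log2 ratio of 0.11 ± 0.21. The dimmer read 25.3 ± 5.24 and 22.3 ± 4.65, a log2 ratio of −0.11 ± 0.42. The probes differed in sign and both lay within the error of the software.

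Among the sensing genes, Cd14 encodes the co-receptor that hands lipopolysaccharide to Tlr4. Its brighter probe read 821 ± 82.2 in WT and 1267 ± 127 in KO, a log2 ratio of 0.70 ± 0.20 and a ratio of 1.62. The second probe, 182 bp away, read 748 ± 74.96 and 957 ± 95.8, a log2 ratio of 0.43 ± 0.20 and a ratio of 1.34. KO was the brighter array at both probes, but only the first passed the limit. The mean of both probes, 0.56, did not pass it either. In the whole array 1189 genes had a higher ratio than the brighter Cd14 probe.

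Tlr4 encodes the receptor for lipopolysaccharide, and its probes disagreed. The probe A_51_P300806 read 37.5 ± 6.17 in WT and 10.8 ± 4.43 in KO, where it was not well above background. That is a level at least 2.06-fold lower in KO at this probe, with a measured log2 ratio of −1.72 ± 0.64. The other NM_021297 probe was at background on both arrays, with 5.19 ± 5.21 in WT and 4.88 ± 4.61 in KO. The distant probe read 882 ± 88.3 and 935 ± 93.5, a log2 ratio of 0.16 ± 0.20. The rule of the brightest probe thus placed Tlr4 within the limits on the probe that lies farther away than the RefSeq gene is long. With the NM_021297 probes alone, 3 of the 10 genes were lower and the median was −0.06. The low value at A_51_P300806 shrank to −0.34 with normexp, within the limits, so neither direction was firm for Tlr4.

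**Figure D2:**
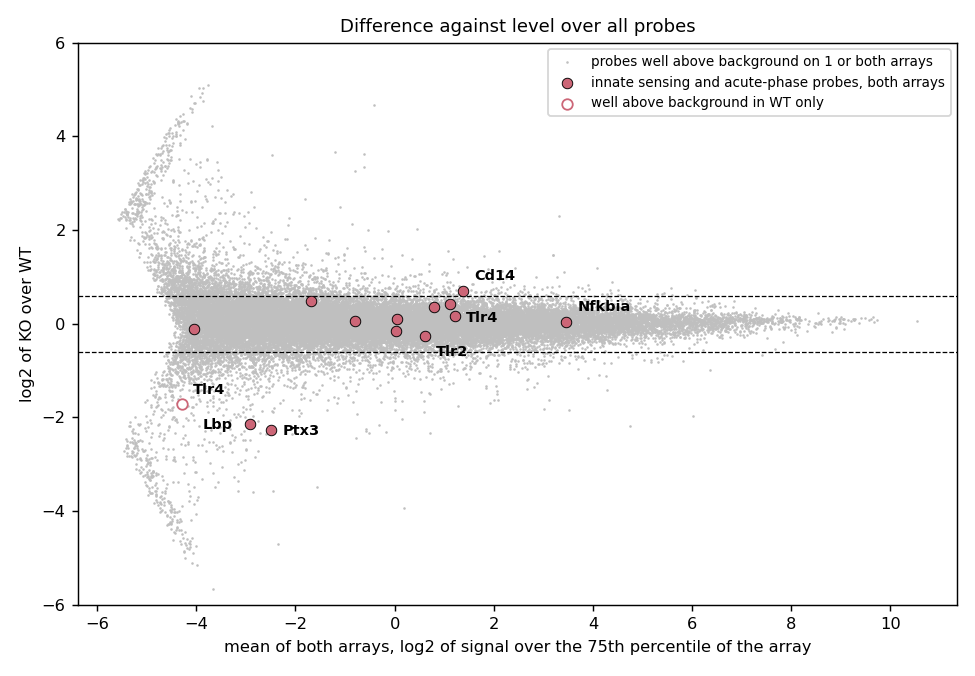
Log2 ratio of KO over WT against the mean log2 level over both arrays, for every probe well above background on 1 or both arrays (grey) and for the probes of the 10 genes (red, open where well above background in WT only). Dashed lines mark ratios of 0.66 and 1.5. Ptx3, Lbp and one Tlr4 probe lie in the dim range where the grey cloud is widest, and the other probes lie inside or, for Cd14, just above the dashed lines.

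Tlr2, the lipoprotein receptor, read 670 ± 67.2 in WT and 532 ± 53.4 in KO, a log2 ratio of −0.26 ± 0.20. Myd88, the adaptor shared by most Toll-like receptors, read 432 ± 43.4 and 369 ± 37.1, a log2 ratio of −0.15 ± 0.20. Both were dimmer in KO and both lay within the limits.

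The feedback genes were the closest to equal. Nfkbia, which encodes the inhibitor IκBα and is itself an NF-κB target, read 4369 ± 437 in WT and 4282 ± 428 in KO. After scaling the log2 ratio was 0.04 ± 0.20, and it fell just below 0 with scaling by the median. Tnfaip3, the ubiquitin-editing enzyme A20, read 226 ± 23.0 in WT and 223 ± 22.7 in KO, a log2 ratio of 0.05 ± 0.21. No difference in either feedback gene was detectable with 1 array of each genotype.

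**Figure D3:**
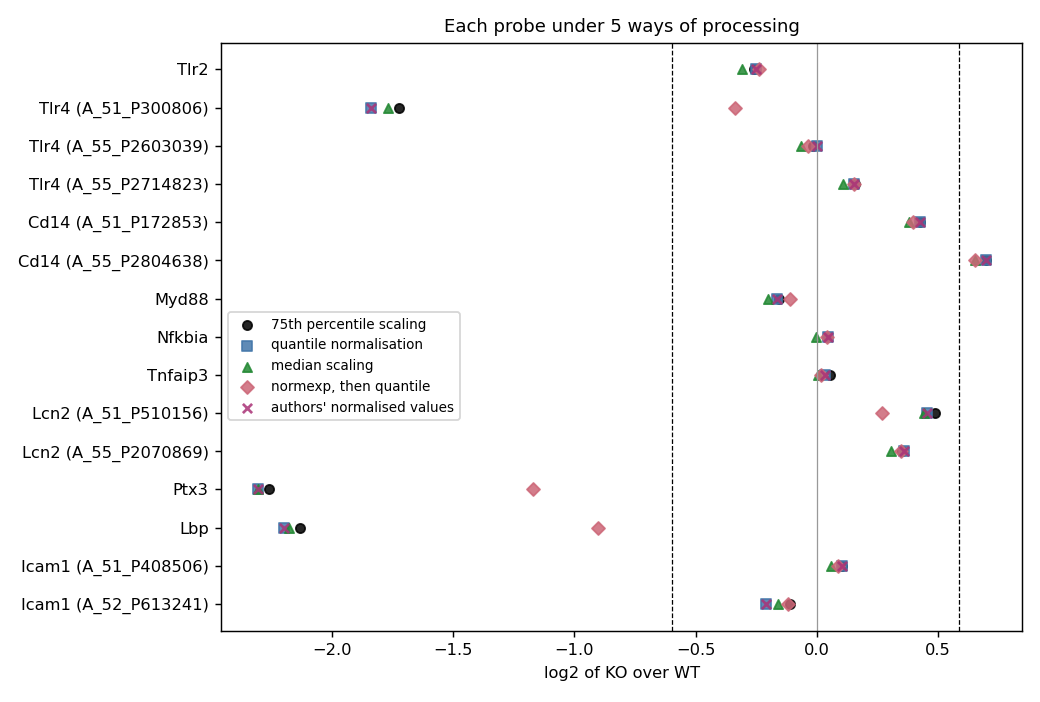
Log2 ratio of KO over WT for each of the 15 probes under 5 ways of processing the signals. Dashed lines mark ratios of 0.66 and 1.5. The points of most probes fall together, whereas normexp moves Ptx3, Lbp and one Tlr4 probe toward 0 (to −1.17, −0.90 and −0.34).

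Of the 15 probes, 13 kept their sign under all 5 ways of processing. The exceptions were Nfkbia and the Tlr4 probe at background. As a gauge of technical error, probes spotted several times had a median SD between spots of 0.04 (log2) on either array. The log2 ratios of different probes of 1 gene had a median SD of 0.14 over 7147 genes and a pooled SD of 0.25. The differences of Ptx3 and Lbp were several times either value. Those of Nfkbia, Tnfaip3 and the brighter Icam1 probe were smaller than both, that of Myd88 lay between them, and that of Tlr2 was above the median SD and close to the pooled one. These spreads measure probes and spots and say nothing of the variation between mice.

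The start regions of these genes were searched for a κB-like motif, the letters GGNNNTTCC or, on the other strand, GGAANNNCC, because NF-κB binds sites of this form. RefSeq start regions (GRCm38) were matched by symbol for 7 of the 10 genes, and Tlr4, Cd14 and Lbp had none in the table. The motif was present within 250 bases before an annotated start in 4 of the 7 genes, Tlr2, Icam1, Nfkbia and Tnfaip3, with 10 matches in 9 separate sites, and was not found for Lcn2, Ptx3 and Myd88. Of all 27025 genes with a start region, 17.6% held it, and of all 32851 start regions 15.7% did. One window of 30 bases for each of the 4 genes is shown on the strand of the gene, the matched letters in capitals, since these are the receptor, adhesion and feedback genes with log2 ratios between −0.26 and 0.11.
Tlr2, chr3:83841761-83841790, minus strand: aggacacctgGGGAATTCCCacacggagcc
Icam1, chr9:21015777-21015806, plus strand: acttcagtttGGAAATTCCtagatcgcagg
Nfkbia, chr12:55492806-55492835, minus strand: ctggtcgggaGGACTTTCCagccactcagg
Tnfaip3, chr10:19015415-19015444, minus strand: tcacgtgactGGAATTTCCatcggaaatcc

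The Tlr2 match lies 172 bases before the start and covers 10 bases, since the letters match on both strands with an offset of a base. The matches shown lie 153 bases before the start for Icam1, 178 for Nfkbia and 24 for Tnfaip3. A match of letters is not a measured binding site. Nor does a missing match show that a gene lacks an NF-κB site, since only this form was searched within 250 bases. All 4 of these genes lay within the ratio limits. Of the 3 without a match, Ptx3 was lower and Lcn2 and Myd88 lay within the limits.

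The wider pathway was described with 92 further genes, of which 70 were seen on either array. Among these 70, 12 were lower and 3 higher in KO, and their median log2 ratio was −0.07, against 5.63% lower, 5.61% higher and a median of 0.03 over all genes. With the Z-score limit as well, 9 were lower and 1 higher, against 3.27% and 2.34% of all genes. The lower calls lost with it were Tlr6, Irak4 and Itga4, and the higher ones Hp and Icam4. Of the 12 lower genes, 4 were other acute-phase genes. The receptors, the receptor partners and the inhibitors and feedback genes held 2 each, and the adaptors and kinases and the adhesion genes 1 each.

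Of 10 other Toll-like receptors, 7 were seen, 2 of them lower, with a median of −0.25 and a summed scaled signal ratio of 1.00. The receptors with the brightest probes were near equal, Tlr9 at 0.08, Tlr13 at 0.08 and Tlr7 at 0.05. Tlr1, a partner of Tlr2, read 108 in WT and 51.6 in KO, a log2 ratio of −0.99, while its second probe gave −0.53. Tlr6, the other partner of Tlr2, read 40.0 and 24.0, a log2 ratio of −0.67. The double-stranded RNA receptor Tlr3 read 78.6 and 63.0, or −0.25, within the limits. Both partners of Tlr2 thus passed the ratio limit at dim signals, Tlr6 without meeting the Z-score limit, and Tlr2 did not pass it.

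Among the receptor partners, 7 of 8 were seen with a median of −0.33. Ly86, which pairs with the Toll-like receptor homologue Cd180, read 2831 in WT and 947 in KO, a log2 ratio of −1.51. Unc93b1, the chaperone of endosomal Toll-like receptors, read 523 and 299, or −0.74. These were the lower genes of the list. Ly96, the partner of Tlr4, read 49939 and 53061, or 0.16, but its probe holds a tandem repeat of 30 bases and a stretch shared with probes of 41 other genes, so that signal cannot be assigned to Ly96.

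Of 17 adaptors and kinases 15 were seen, and 1 was lower, a share near that of all genes. This was Irak4, the kinase recruited by Myd88, which read 36.9 in WT and 18.6 in KO, a log2 ratio of −0.91 that did not meet the Z-score limit. The second Irak4 probe was also called lower, but it was dimmer and not well above background in KO. Its measured log2 ratio of −2.76 is thus inexact, and only a bound holds. The median of the list was 0.03. Probes of a gene could differ here too: the measured log2 ratios ran from −0.61 to 2.77 over those of Traf6, and 1 probe of Irak2 gave 0.62. All 5 NF-κB subunits were seen and lay within the limits, with a median of −0.05: Rela read 4382 in WT and 4195 in KO, a log2 ratio of 0.01, and Nfkb1 read 480 and 393, or −0.22. Of 19 inhibitors and feedback genes 16 were seen, and 2 were lower. Bcl3, an atypical IκB protein, read 1133 and 483, or −1.16, and Socs3, the feedback inhibitor of STAT3 signalling, read 1719 and 979, or −0.74. The median of that list was −0.05. Bcl3 and Socs3 were thus called lower, while Nfkbia and Tnfaip3 were near equal.

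Among 21 other acute-phase genes, 10 were seen, 4 of them lower and 2 higher, with a median of −0.20. The protease inhibitors Serpina3n and A2m and the inter-alpha-trypsin inhibitor chain Itih3 were lower. Serpina3n read 653 in WT and 231 in KO, a log2 ratio of −1.43. A2m was well above background in WT only and at least 3.99-fold lower in KO. Itih3 read 1540 and 879, or −0.74. Cebpd, a transcription factor of acute-phase genes, read 6911 and 4039, or −0.70. The haptoglobin gene Hp was higher at dim signals, with 30.7 and 44.3, a log2 ratio of 0.60. Itih4 read 47.6 and 101, or 1.16 at its brighter probe and 0.30 at the other. The ceruloplasmin gene Cp gave 0.42 at its brightest probe, within the limits. The 4 Cp probes seen ran from −1.31 to 0.42, and 2 of them were lower. The acute-phase genes thus did not move one way. Saa3 and 10 more genes of this list, among them Crp and the fibrinogen genes, were not well above background on either array.

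Of 12 adhesion genes 10 were seen, with a median of 0.03. Itga4, the integrin α4 subunit, was well above background in WT only and at least 1.54-fold lower in KO. Icam4 read 24.3 in WT and 41.1 in KO, a log2 ratio of 0.83 near the lowest measurable signal. Apart from these, adhesion genes lay within the limits, as Icam1 did.

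**Figure D4:**
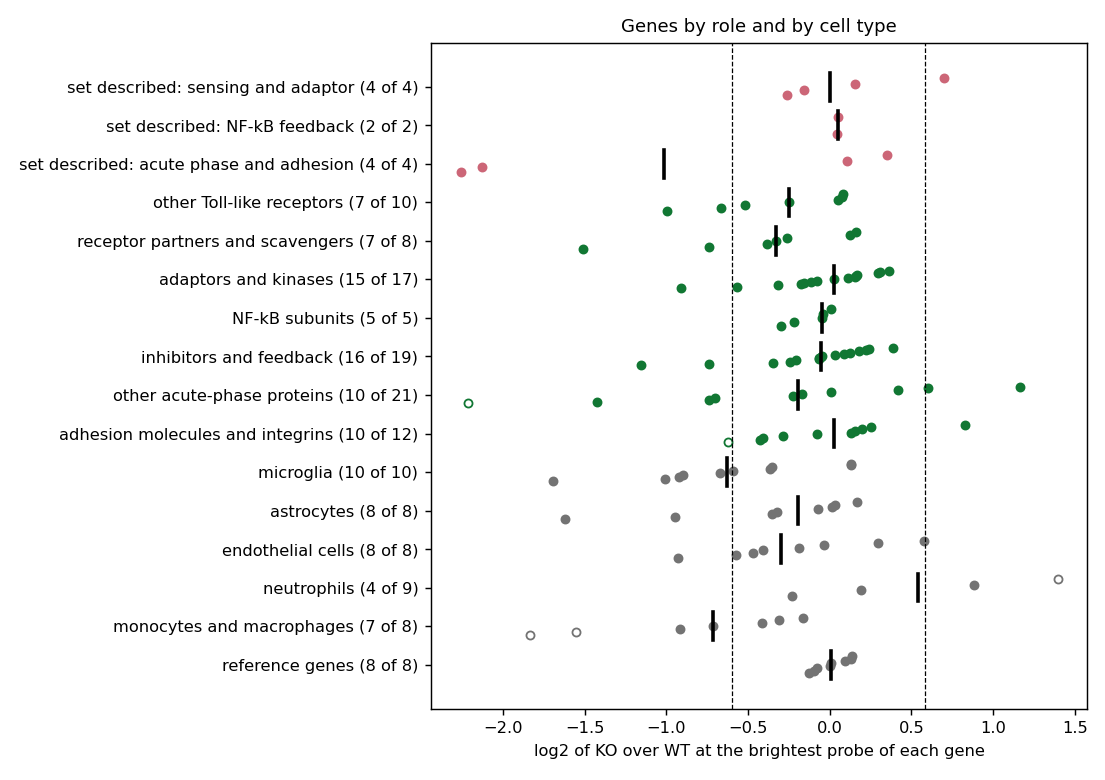
Log2 ratio of KO over WT of each gene at its brightest probe, for the 10 genes described (red), the wider pathway (green) and cell type and reference genes (grey), with the number seen of the number listed. Black bars are medians, dashed lines mark ratios of 0.66 and 1.5, and open points were well above background on 1 array only. The NF-κB subunits and reference genes lie between the dashed lines, and the microglia and macrophage lists lie mostly to the left.

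Markers of the cells that carry these genes also differed between the arrays. In bulk tissue, fewer cells of a type and less RNA per cell cannot be told apart from the arrays alone. The study counted microglia stained for Iba1 protein in the striatum at the same time after MPTP. It reported no significant difference between the genotypes. From microarrays it also reported that chemokine and cytokine genes of microglial activation did not differ after MPTP. The values below are RNA of marker genes and not cell counts. All 10 microglia markers were seen and 5 were lower in KO, with a median log2 ratio of −0.63. Over all genes 5.63% were lower and 5.61% higher, the shares to set beside this count and those of the cell types below. P2ry12 gave −1.69, Fcrls −1.01, Aif1 −0.93, Tmem119 −0.90 and Cx3cr1 −0.67. The brightest microglia probe, of Itgam, gave 0.13 and was of repeated sequence, like that of Siglech. The other Itgam probe gave 0.11, and the 3 Siglech probes ran from −0.48 to 0.42. Without both genes the summed microglia signal was 29819 in WT and 20138 in KO, a scaled ratio of 0.710. Of the 10 microglia markers, 5 were thus lower on the array where Cd14 was higher, where Tlr2 gave −0.26 and where Tlr4 depended on the probe. The part of microglia in these values was not tested.

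Of 8 monocyte and macrophage genes 7 were seen and 4 were lower in KO, with a median of −0.72 that ran from −0.77 to −0.29 over the alternatives. Their summed signal was 11964 in WT and 9953 in KO, most of it from Ly6c2, which read 10427 and 8844, a log2 ratio of −0.17. The Ly6c2 probe shares a stretch of sequence with probes of 1 other gene, whose part in this signal was not tested. The 4 lower genes read 63.7 or less in WT, so the sum mostly reflects the Ly6c2 probe and cannot be taken as monocyte and macrophage RNA. Of 8 astrocyte genes, 2 were lower, Gfap at −1.62 and Aqp4 at −0.95, whose probes ran from −4.24 to 0.02, and the summed signal was 164361 and 143784. The median of the astrocyte list was −0.20. The part of astrocytes in the lower value of Ptx3, and in the values of Cd14 and Lcn2 that read higher in KO, was not tested. Of 8 endothelial genes, 1 was lower, Flt1 at −0.93, although another of its probes gave 0.52. The brightest endothelial probe, of Cldn5, gave 0.30, and the summed signal was 7465 and 6061.

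Of 9 neutrophil genes 4 were seen and 2 passed the limit as higher in KO, neither with the Z-score, with a summed signal of 483.7 in WT and 573.6 in KO. S100a8 was well above background in KO only and at least 2.26-fold higher there, and S100a9 read 69.4 and 122, a log2 ratio of 0.89. The brightest neutrophil probe, of Elane, gave 0.19, and Camp read 80.8 and 65.5, a log2 ratio of −0.23. The defining granule genes Mpo, Ngp and Ltf, and also Retnlg and Cxcr2, were not well above background on either array. S100a8 and S100a9 are shared with other myeloid cells, and Cd14 and Lcn2 are also known from neutrophils. The part of neutrophils in the higher KO values of Cd14 and Lcn2 was not tested.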

How the data were processed

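Striatal RNA of MPTP-treated WT and Cx30 KO mice was measured on 2 arrays, 1 for each genotype. The authors extracted spots with Agilent Feature Extraction, version 10.7.1.1 in the file headers and 9.5.1.1 in the submitters' processing notes. The deposited intensities are background-subtracted and detrended within each array by that software, on probes placed on mm9. The authors also deposited a table of linear normalised intensities. Once sorted, both columns of that table were the same to within 0.0194%, and quantile normalisation of the processed signals gave 99.991% of its values with a tolerance of 1%.

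Here control and outlier spots were left out, repeat spots were averaged on the log2 scale, and each array's 75th percentile was subtracted. A probe was taken as well above background if the software marked 50% or more of its spots in that way (56.6% of probes in WT, 58.2% in KO). A gene was taken at its brightest such probe. Older symbols were replaced for 2036 probes through a RefSeq table, none of them among the 10 genes (0). Where 1 array only was well above background, a fold is against the higher of the lowest such signal and the probe's own signal on the other array. A probe was of repeated sequence when it held a tandem run of at least 12 bases or shared 16 bases with probes of at least 5 other genes.

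Python 3.11.15, numpy 2.4.6, pandas 2.3.3, matplotlib 3.10.9, R 4.3.3 and limma 3.58.1 were used, and the calling of ratios was tested on simulated data. The number of arrays limits the precision, and no test was made. Alternatives were quantile normalisation, median scaling, normexp with an offset of 50, the authors' normalised values, both settings of the filter on dim probes, averaging all probes of a gene, an added Z-score and ratio limits of 2 and 0.5. The genes and lists were chosen with earlier results of these data known. All probes of the 10 genes are named, with Gjb6, the pathway genes past the limits, Rela, Nfkb1, Ly96, Tlr3 and Saa3, and, for microglia, endothelial cells and neutrophils, the brightest gene and those past the limits. Gfap, Aqp4, Tlr7, Tlr9, Tlr13, Traf6, Irak2, Cp, Ly6c2 and Camp were named after their values were seen.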

Additional observations from a re-analysis of the deposited data

How the results depend on the processing

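Across the alternative ways of processing, the number of the 10 genes that were lower in KO stayed at 2 or reached 3, and their median log2 ratio ran from −0.08 to 0.05. The number higher, 1 (Cd14), was 0 when all probes of a gene were averaged and 0 with ratio limits of 2 and 0.5. Tlr4 moved from 0.16 to −0.78 with the mean of its probes. With normexp, Ptx3 moved to −1.17 and Lbp to −0.90, both still lower. After the data were seen, Tlr4 was also taken at its NM_021297 probes alone (−1.72), and probes of repeated sequence were left out, which changed none of the 10 genes. The neutrophil median, 0.54, was 0.19 over probes well above background on both arrays, and that of the other Toll-like receptors was 0.01 without a filter on dim probes. The scalings moved the median of all genes between −0.02 and 0.03. No paired analysis was possible because each group holds 1 array, and for the same reason no array could be left out. Signals near the lowest well above background limit Ptx3 and Lbp in KO and Tlr4 at NM_021297.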
